A study of Mus musculus with 6 samples.

Results

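The 5 genes described here, Gfap, Vim, Nes, Synm and Des, encode intermediate filament proteins known from reactive glia and from the cells of the vessel wall. They were taken by symbol from the deposited gene table, which lists 27998 genes, and each symbol matched 1 row. The libraries were made by droplet-based single-cell 3′ RNA sequencing of brain cells from C57BL/6 mice aged 6 to 8 weeks, with 3 libraries from mice after a sham operation and 3 from mice after middle cerebral artery occlusion (MCAO), a model of ischemic stroke in which the artery that supplies much of one cerebral hemisphere is blocked. All cells were taken 24 h after surgery, after papain digestion and removal of myelin debris on Percoll. The labels name no transgene or drug, and they do not give the sex, the duration of the occlusion or the number of animals in a library. They also do not say whether the 3 libraries of a group came from separate animals, so p-values measure the spread between libraries, which may in part be technical.

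Intermediate filaments are tough, rope-like polymers that give cells mechanical strength and anchor organelles and junctions. Gfap is the filament protein of astrocytes, and its increase is the classic sign of reactive astrocytes after injury to the brain. Vim (vimentin) copolymerizes with Gfap and is widespread in cells of mesenchymal origin. Nes (nestin) and Synm (synemin) are large members of the family that enter filaments together with vimentin, desmin or Gfap rather than forming filaments alone. Des (desmin) is the filament protein of muscle and of mural cells, the pericytes and smooth muscle cells that wrap vessels.

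The 6 libraries held 8104 to 11772 cell barcodes and 25135690 to 42848023 UMIs (unique molecular identifiers, each standing for 1 captured transcript) apiece. Of 58528 barcodes, 52553 were kept, and any 2 libraries shared 77 to 184 barcode sequences. Cells were clustered without the 5 genes and named by markers that also exclude them, so a class name below means cells that look like that type by its markers. Of 13 named classes, 12 had at least 20 cells in every library and were tested. No cluster was named as neurons, neuroblasts or oligodendrocyte precursors. MCAO libraries were deeper per cell, with medians of 2810 to 3450.5 UMIs per kept cell against 2352 to 2429 in sham libraries. Several classes split by group, with sham cells and MCAO cells mostly in different clusters. Of sham astrocytes 92.4% were in cluster 15, and of MCAO astrocytes 99.6% were in cluster 9. Sham smooth muscle cells were in cluster 13 and MCAO ones in cluster 12. Sham oligodendrocytes were in cluster 20 and MCAO ones in cluster 17. Sham microglia were in cluster 1 and MCAO ones in clusters 5 and 7. Endothelial cells were mostly in clusters 2, 3 and 6 in sham and in clusters 0 and 4 after MCAO. Endothelial cluster 24 held 132 sham and 130 MCAO cells. Choroid plexus epithelium was in clusters 14 and 10 in the same way. Pericytes (cluster 16) and ependymal cells (cluster 25) each formed 1 cluster for both groups. So did border macrophages (8), monocyte-derived cells (11), neutrophils (18), fibroblasts (21) and T or NK lymphocytes (22).

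The promoters of Gfap and Des are shown because the genes stand at the opposite ends of the response: Gfap was the member with the largest change in astrocytes and ependymal cells, and Des did not pass the test in the mural classes that hold most of it. Each run is the 250 bases before the RefSeq transcription start on GRCm38.p6, read 5′ to 3′ on the gene's strand, and capitals mark matches to the motifs searched. The Gfap window is on the reverse strand at chr11:102897201-102897450 and the Des window on the forward strand at chr1:75360042-75360291. The Gfap window lies inside the longer GENCODE span of the gene given below. It precedes the RefSeq start, not the start of that span.
Gfap: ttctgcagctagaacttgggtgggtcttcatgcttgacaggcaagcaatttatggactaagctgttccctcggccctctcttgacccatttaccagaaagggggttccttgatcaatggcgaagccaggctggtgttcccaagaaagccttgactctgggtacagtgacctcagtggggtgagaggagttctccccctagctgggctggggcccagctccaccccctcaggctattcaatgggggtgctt
Des: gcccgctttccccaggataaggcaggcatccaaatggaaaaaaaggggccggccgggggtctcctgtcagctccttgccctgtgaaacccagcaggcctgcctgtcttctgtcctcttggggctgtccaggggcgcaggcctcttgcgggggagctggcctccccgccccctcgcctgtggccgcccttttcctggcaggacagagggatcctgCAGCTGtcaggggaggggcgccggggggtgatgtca
The motifs, searched on both strands, were the STAT site TTCNNNGAA (in 7.02% of 32851 promoter windows of this length), the AP-1 site TGANTCA (6.75%), the TATA box TATAAA (12.4%), the NF1 half-site TTGGC (41.5%), the CCAAT box CCAAT (33.9%), the E-box CAGCTG (13%), the CArG box (1.47%) and the MEF2 site (0.508%). The Gfap window held none of them, which says only that these letters are not in this window. The Des window held 1 E-box, 36 bases before the start. All 5 members matched a RefSeq promoter entry. The genes lie on 5 chromosomes: Des at chr1:75360329-75368579, Vim at chr2:13573927-13582826, Nes at chr3:87971078-87980451, Synm at chr7:67730160-67759742 and Gfap at chr11:102887336-102900912 (mm10, GENCODE M21).

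Gfap was higher after MCAO in astrocytes and in ependymal cells, the ciliated cells that line the ventricles. Levels are given as UMIs of a gene per 1000000 UMIs of a class (CPM, after TMM scaling), so levels of different genes, which differ in capture, are not set against each other. In astrocytes the 3 sham libraries had 104, 195 and 145 CPM of Gfap (99, 202 and 170 UMIs), and the 3 MCAO libraries had 1169, 1127 and 1163 CPM (2514, 2166 and 2094 UMIs). Every MCAO library was far above every sham library, and the MCAO libraries lay closer together than the sham ones. The mean rose from 148 ± 45.7 to 1153 ± 22.8 CPM (SD, n = 3 each), a log2 change of 2.96 ± 0.21 (SE) with an adjusted p of 7.23e-04 by the quasi-likelihood test of edgeR, adjusted by Benjamini and Hochberg's method over all genes tested in the class, which is the test behind each adjusted p below. Of the 9803 genes tested in astrocytes 10.6% were called higher and 8.29% lower at an adjusted p under 0.05. Gfap and Vim were the 2 members called, both higher, and the other 3 did not pass the test. Mitochondrial RNA moved with the groups in astrocytes, from medians per cell of 4.72% to 5.06% in sham to 3.32% to 3.78% after MCAO. With only cells under 5% the changes were 3.40 ± 0.10 for Gfap (adjusted p = 4.49e-28, edgeR) and 1.37 ± 0.25 for Vim (adjusted p = 0.0153).

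Ependymal cells showed the larger fitted change of Gfap, from far fewer cells (27 to 46 per library). They had 157, 70.3 and 114 CPM in the sham libraries (14, 6 and 16 UMIs) and 1730, 1525 and 2105 CPM in the MCAO libraries (182, 151 and 250 UMIs), again with no overlap. The log2 change was 3.96 ± 0.20 (adjusted p = 5.82e-17, edgeR). Gfap and Vim were called higher there, where 3.67% of 2398 genes were called higher and 3.04% lower. After MCAO the ependymal level of Gfap was 113% to 149% of the astrocyte level of the same library, while the median of the 15 astrocyte markers was 4.54% to 6.15%. In sham libraries Gfap stood at 26.9% to 114% of the astrocyte level, and the markers' median at 5.06% to 6.72%. Summed astrocyte markers in ependymal cells also moved with the groups, from 1840 to 2647 CPM in sham to 2979 to 3301 CPM after MCAO. None of the 15 was at 0, which for markers here and below means no UMI in the class over the 6 libraries together. Up to 2 of the 15 had no UMI in a single library. UMIs of at least 4 astrocyte markers were found in 63 of 101 sham and 75 of 89 MCAO ependymal cells. Without those cells as few as 4 were left in a library, so the changes were not tested without them. The choroid plexus markers went from 6201 to 17947 CPM down to 3419 to 6189 CPM. The part of either marker set in the result was not tested. The difference between the changes in ependymal cells and astrocytes was not tested.

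**Figure D1:**
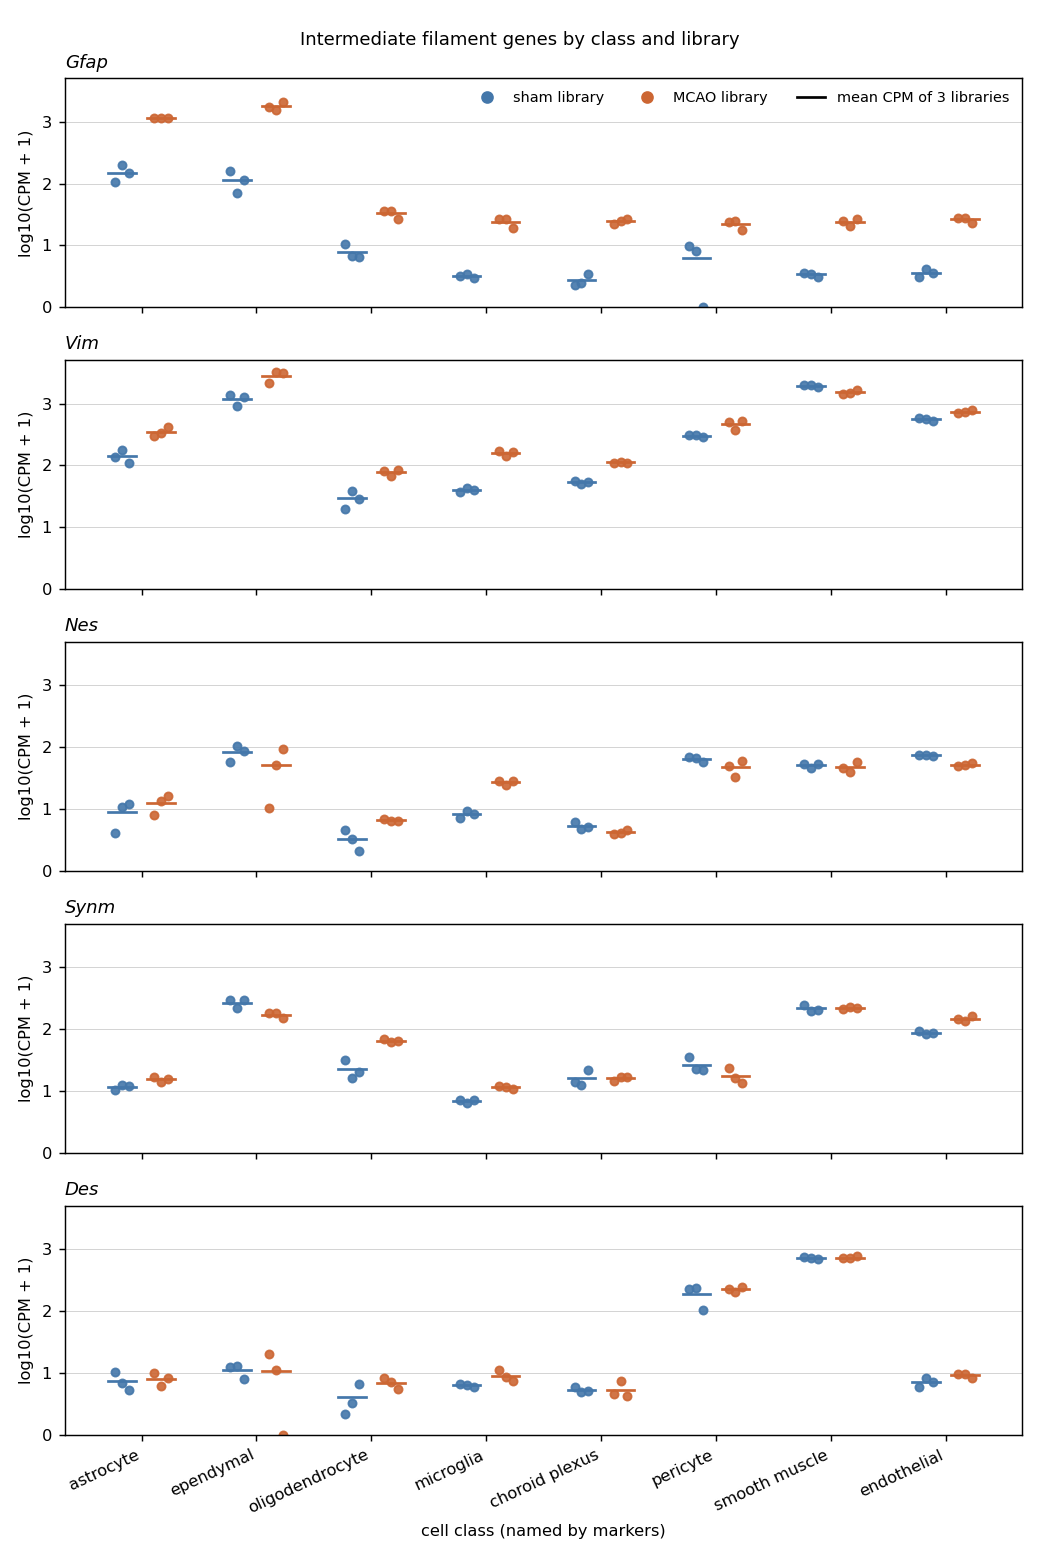
Levels of the 5 genes in 8 classes, as log10(CPM + 1); each point is 1 library, and each bar is the mean CPM of 3 libraries on that scale. Gfap stands apart in astrocytes and ependymal cells, Des in the 2 mural classes, and Vim is present in every class shown.

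In every other class Gfap was low, at means of 1.74 to 6.93 CPM in sham and 21.0 to 32.0 CPM after MCAO among oligodendrocytes, microglia, choroid plexus epithelium, pericytes, smooth muscle and endothelial cells. RNA freed from broken cells is captured with other cells in droplet data, and it keeps the genes of 1 source in 1 ratio in every class. The MCAO Gfap levels of these 6 classes were 1.39% to 3.20% of the astrocyte level, against 1.45% to 3.26% for the median of the 15 astrocyte markers in the same libraries. After MCAO Gfap stood near the level of such background in them. In sham it was at 0% to 8.57% of the astrocyte level, against 0.610% to 1.71% for the markers' median. Those sham levels rest on 0 to 33 Gfap UMIs per library. The highest were in oligodendrocytes (2.79% to 8.57%, from 5 to 8 UMIs). The test called Gfap higher in microglia, endothelial cells, smooth muscle, oligodendrocytes and choroid plexus epithelium (log2 changes of 2.21 to 3.7). Those calls are read no further. Pericytes, with 12, 11 and 8 Gfap UMIs in the MCAO libraries, did not pass the count filter. Astrocytes held 67.6% ± 7.7 of all Gfap UMIs of the kept cells in sham and 68.8% ± 0.9 after MCAO (SD, n = 3), although they were 3.74% and 5.88% of the cells. Over all kept cells Gfap rose from 9.30 ± 2.20 to 101 ± 3.48 CPM, a log2 change of 3.44 ± 0.14 (adjusted p = 5.34e-06, edgeR).

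The rise showed both as more astrocytes with a Gfap UMI and as more UMIs in them. With each cell thinned to 1000 UMIs, a depth every kept cell of these classes reached, Gfap was detected in 10.8%, 8.55% and 10.1% of sham astrocytes and in 39.0%, 41.4% and 40.5% of MCAO astrocytes. The groups did not overlap, and the exact two-sided permutation p over libraries was 0.1, the smallest that 3 against 3 can give. Unthinned, the difference was 40.0 percentage points against 30.5 in thinned cells. In endothelial cells, which should lack Gfap, the thinned share went from 0.209% ± 0.060 to 2.57% ± 0.33 (median depths of 2132 to 2206 and 2272 to 2749.5 UMIs, against 3010 to 3189 and 3120 to 3975 in astrocytes). Cells with at least 5 Gfap UMIs made up 0.309% ± 0.299 of sham and 5.16% ± 1.29 of MCAO astrocytes. Among cells with any, the mean went from 1.61 ± 0.28 to 2.51 ± 0.09 UMIs. At full depth the tenth of astrocytes with the most Gfap held 75.0% ± 1.1 of its UMIs in sham and 54.2% ± 3.5 after MCAO. Ependymal cells with a Gfap UMI went from 6.26% ± 3.87 to 57.2% ± 3.88.

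Vim was higher after MCAO in all the glial classes, in ependymal cells, in pericytes and in endothelial cells, and lower in smooth muscle, where it was most abundant in sham. In astrocytes the sham libraries had 135, 179 and 107 CPM and the MCAO libraries 303, 329.9 and 419 CPM, without overlap. Means were 140.4 ± 35.9 and 351 ± 60.6 CPM, a log2 change of 1.32 ± 0.23 (adjusted p = 0.0153, edgeR). The call was lost without sham replicate 1 (log2 change 1.30, adjusted p = 0.105). In ependymal cells Vim went from 1391, 902 and 1263 CPM to 2138, 3251 and 3099 CPM, a log2 change of 1.25 ± 0.16 (adjusted p = 1.2e-05, edgeR). Astrocytes with a Vim UMI, thinned, were 8.93% ± 2.27 in sham and 20.4% ± 0.34 after MCAO, and ependymal cells 53.6% ± 10.0 and 81.0% ± 4.2, each with the exact permutation p of 0.1. With all UMIs the ependymal shares were 92.7% ± 6.3 in sham and 100% in each MCAO library, overlapping groups (exact permutation p = 0.4) with a difference of 7.33 percentage points.

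Gfap and Vim were found together in astrocytes mainly after MCAO. Thinned to 1000 UMIs, 1.5% ± 0.39 of sham and 11.9% ± 0.52 of MCAO astrocytes had UMIs of both, and 8.35% ± 1.44 and 28.4% ± 1.42 had Gfap alone. The share with Vim alone, 7.43% ± 1.99 and 8.43% ± 0.41, overlapped between the groups (exact permutation p = 0.5). Among astrocytes with a Gfap UMI, Vim was detected in 9.68%, 19.2% and 17.6% of cells in sham libraries and in 30.3%, 27.7% and 30.9% after MCAO. Among astrocytes without one, it was in 8.23% ± 2.09 and 14.1% ± 0.94. Vim was thus more often detected beside Gfap than without it in each of the 6 libraries. The sham shares beside Gfap rest on 31, 26 and 34 cells, and in sham replicate 1 the 2 shares were close, 9.68% and 6.28%. This difference was not tested. In ependymal cells both genes were in 5.53% ± 4.55 of sham and 46.2% ± 4.05 of MCAO cells.

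**Figure D2:**
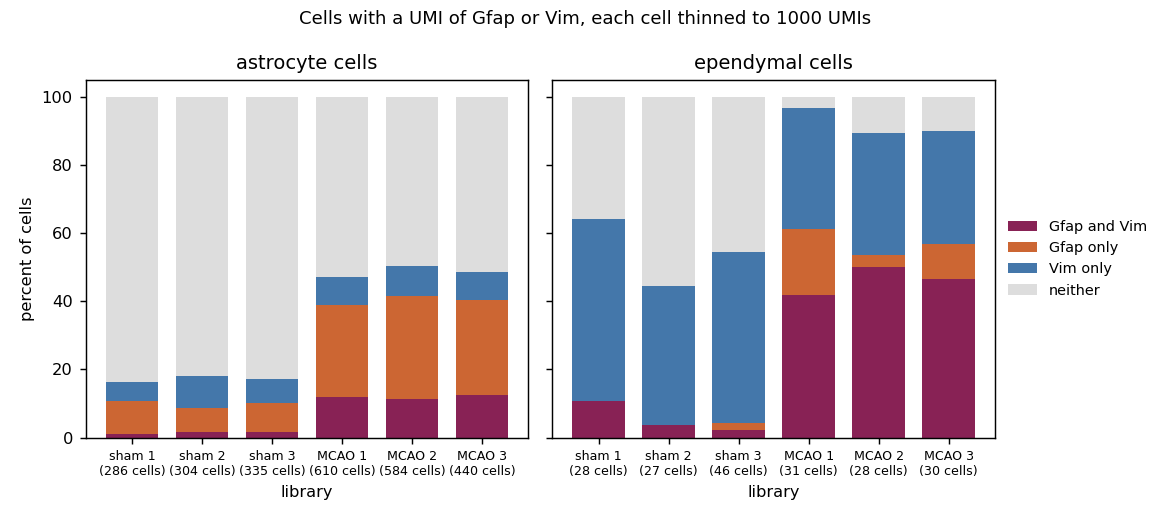
Share of astrocytes (left) and ependymal cells (right) with a UMI of Gfap, Vim, both or neither in each library, each cell thinned to 1000 UMIs. The Gfap-containing part of each bar is larger in every MCAO library than in any sham library, and Vim without Gfap is common in sham ependymal cells.

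Sham astrocytes were not uniform for these genes. Only 21, 31 and 18 sham astrocytes fell in cluster 9, the cluster of the MCAO astrocytes, and they had 593, 559 and 396 CPM of Vim (scaled to the UMIs of those cells alone), against 93.0, 137 and 93.1 CPM in the sham cells of cluster 15 and 288, 312 and 392 CPM in MCAO cells of cluster 9. Their Gfap was 58.2, 515 and 701 CPM, against 112, 162 and 115 CPM in cluster 15. So 51 of the 129 sham replicate 1 Vim UMIs in astrocytes came from 21 cells. The ependymal markers also moved with the groups in this class: 7 of 7 tested were lower after MCAO, and their sum went from 101 to 152 CPM down to 30.2 to 47.9 CPM, with none at 0. Leaving out the 28 sham and 7 MCAO astrocytes with UMIs of at least 4 ependymal markers gave log2 changes of 1.48 ± 0.19 for Vim (adjusted p = 2.06e-03, edgeR) and 2.97 ± 0.14 for Gfap (adjusted p = 2.51e-06), as large as with them.

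In the other glia Vim was also higher. Oligodendrocytes had 18.9, 38.1 and 27.9 CPM in sham and 79.3, 65.3 and 84.5 CPM after MCAO (log2 change 1.42 ± 0.20, adjusted p = 5.42e-07, edgeR). Oligodendrocytes had 3 members called higher, Gfap, Vim and Synm, where 11.0% of tested genes were higher and 9.36% lower. In sham their Vim was 3.13% to 6.59% of the endothelial level against 3.29% to 4.66% for the 12 endothelial markers' median, and after MCAO it was 9.05% to 11.0% against 3.54% to 5.99%. Endothelial cells held 61.1% of all Vim UMIs in sham and 49.0% after MCAO. Their markers do not gauge free Vim RNA from other classes. Other markers moved with the groups in oligodendrocytes. Astrocyte markers summed to 584 to 713 CPM in sham and 1169 to 1293 CPM after MCAO, with none of 15 at 0. Monocyte-derived markers summed to 122 to 152 and 282 to 436 CPM, with 4 of 5 tested higher and none lower. Neuroblast markers summed to 148 to 233 and 687 to 764 CPM with Dlx6os1 at 0. Only 1 of the 7 neuroblast markers had counts enough to be tested, and it was called higher. Tubb3, which is on that list, was also a leading gene of the MCAO oligodendrocyte cluster 17. The oligodendrocyte markers themselves summed to 75695 to 81735 and 54808 to 58047 CPM. The part of these marker shifts in the Vim and Synm results was not tested. Microglia, the resident macrophages of the brain, had 36.8, 42.7 and 38.9 CPM in sham and 167, 142 and 162 CPM after MCAO (log2 change 2.0 ± 0.07, adjusted p = 1.14e-15). All 5 members were called higher in microglia, a class in which 30.3% of 11780 genes were called higher and 32.1% lower. The Des call (0.60 ± 0.21, adjusted p = 0.0162, edgeR) was lost with DESeq2 (adjusted p = 0.0597), in thinned cells (0.0716), with total count scaling (0.0612), without MCAO replicate 1 (0.126) or sham replicate 3 (0.0674) and without cells that had endothelial markers (0.102). Microglial Gfap and Des stood near background levels after MCAO. Gfap was 1.55% to 2.31% of the astrocyte level and Des 0.797% to 1.40% of the smooth muscle level. The medians of those classes' markers were 1.45% to 2.02% and 0.656% to 0.963%. Microglial Synm was 5.71% to 7.70% of the endothelial level, above that class's markers at 4.22% to 5.44%. It was 4.24% to 5.00% of the smooth muscle level, also above that class's markers. Without cells that had endothelial markers Synm was still called higher (0.95 ± 0.22, adjusted p = 8.22e-04, edgeR). The part of free RNA in microglial Synm was not tested. Choroid plexus epithelium had 2 members called higher, Gfap and Vim, where 7.29% of genes were higher and 6.78% lower, and its Vim went from 52.8 ± 3.0 to 111 ± 2.54 CPM. Border macrophages also had Gfap and Vim called higher (background 15.4% higher and 14.9% lower), with Vim at 78.9 ± 23.5 and 139 ± 9.4 CPM. In monocyte-derived cells 1 member, Gfap, was called higher, at a background level (14.5% of genes higher, 13.3% lower), and Vim, at 912 ± 114 and 860.4 ± 122 CPM, was not called.

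In the mural classes Vim moved in opposite directions. Pericytes had 310.3, 312 and 284 CPM in sham and 509, 379 and 515 CPM after MCAO, a log2 change of 0.64 ± 0.15 (adjusted p = 1.54e-03, edgeR). In cells thinned to 1000 UMIs it was not called (0.60, adjusted p = 0.138). Vim was the 1 member called in pericytes, where 8.17% of 5176 genes were called higher and 6.36% lower. Endothelial markers moved the other way in the same cells, 8 of 11 tested being lower, with sums of 4069 to 6459 CPM in sham and 1979 to 2535 CPM after MCAO and none at 0. Smooth muscle markers there summed to 4137 to 6017 CPM in sham and 2740 to 2839 CPM after MCAO. Of 7 tested, 2 were lower and none higher. The part of the smooth muscle markers in the pericyte results for Vim and Des was not tested. Without the 84 sham and 192 MCAO pericytes with UMIs of at least 4 endothelial markers the Vim change was 0.88 ± 0.21 (adjusted p = 2.06e-03, edgeR).

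Smooth muscle cells had 1968, 1997 and 1834 CPM of Vim in sham and 1416, 1458 and 1657 CPM after MCAO, so each MCAO library was lower than each sham library. The mean fell from 1933 ± 86.6 to 1510.2 ± 129 CPM, a log2 change of -0.36 ± 0.06 (adjusted p = 9.16e-06, edgeR). It was the 1 member called lower there, and Gfap, at its background level, the 1 called higher, where 10.8% of 8972 genes were called higher and 9.31% lower. The share of smooth muscle cells with a Vim UMI, 76.7% ± 2.0 and 72.1% ± 2.3, overlapped between the groups (exact permutation p = 0.2). Mitochondrial RNA moved with the groups in this class: the median per cell was 6.39% to 6.89% in sham and 4.67% to 5.29% after MCAO. With only cells under 5%, which kept 57 to 83 sham and 188 to 218 MCAO cells per library, the Vim change was -0.11 ± 0.09 and was not called (adjusted p = 0.53, edgeR), and Synm was called higher instead (1.0 ± 0.20, adjusted p = 2.73e-04).

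The differences between these changes were themselves tested, with the library as a term. The Vim change was smaller in pericytes than in astrocytes by 0.63 ± 0.17 on the log2 scale (the difference was -0.63, adjusted p = 0.0144, edgeR; 3.13% of genes were called for this pair). Leaving out MCAO replicate 2 or 3, or sham replicate 1 or 3, ended this call (adjusted p of 0.0908 to 0.352). The smooth muscle change differed from the astrocyte change by -1.69 ± 0.10 (adjusted p = 1.92e-16, edgeR; 6.06% of genes called) and from the pericyte change by -1.08 ± 0.15 (adjusted p = 2.56e-09; 3.55% called). Endothelial Vim, at 556 ± 31.8 CPM in sham and 737 ± 35.8 CPM after MCAO (0.41 ± 0.05, adjusted p = 8.28e-07, edgeR), changed less than astrocyte Vim, by -0.93 ± 0.15 (adjusted p = 2.26e-03; 9.60% called), a call lost without sham replicate 1 (adjusted p = 0.0707). It changed by 0.79 ± 0.05 more than smooth muscle Vim (adjusted p = 4.03e-29, edgeR; 10.7% called), or by 0.43 ± 0.09 in cells under 5% mitochondrial UMIs (adjusted p = 8.59e-05), and its difference from the pericyte change, -0.28 ± 0.15, was not called (adjusted p = 0.488; 3.27% called). Vim was the 1 member called between pericytes and astrocytes, between smooth muscle and astrocytes and between smooth muscle and pericytes.

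**Figure D3:**
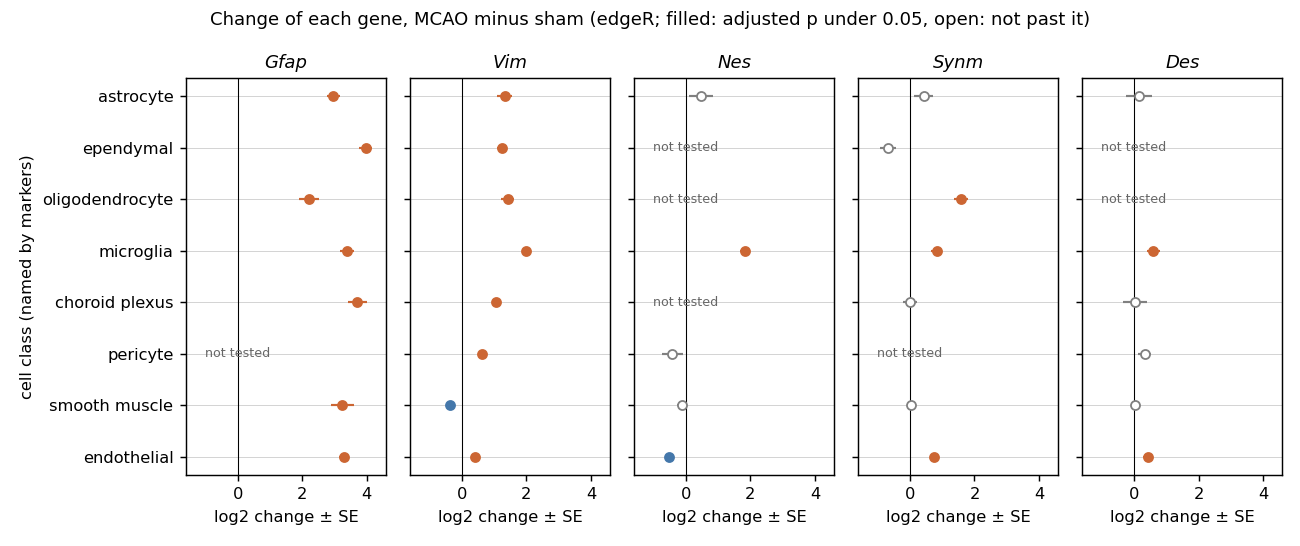
Log2 change (MCAO minus sham) with its SE for each gene and class, from the quasi-likelihood test of edgeR; filled points passed an adjusted p of 0.05 and open points did not. Vim lies right of 0 in every class shown but smooth muscle, and Des lies near 0 in smooth muscle.

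Endothelial cells held less of all Vim UMIs after MCAO, 49.0% ± 1.9 against 61.1% ± 1.2, and smooth muscle 13.9% ± 0.6 against 25.2% ± 0.7. Monocyte-derived cells held 12.7% ± 1.3 against 2.67% ± 0.25, microglia 7.99% ± 0.77 against 2.15% ± 0.14 and astrocytes 4.19% ± 0.53 against 1.52% ± 0.38. A share depends on the level in a class and on the number of its cells: monocyte-derived cells were 0.517% of sham and 5.04% of MCAO cells, and endothelial cells 53.7% and 42.0%. Over all kept cells, where 28.8% of genes were called higher and 28.9% lower, Gfap, Vim and Synm were called higher and Nes lower. Vim went from 396 ± 18.3 to 501 ± 24.9 CPM over all kept cells (log2 change 0.34 ± 0.05, adjusted p = 2.67e-05, edgeR).

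Nes was lower in endothelial cells after MCAO and higher in microglia, and it did not pass the test in astrocytes or in either mural class. Endothelial libraries had 74.2, 75.3 and 71.1 CPM in sham and 48.6, 49.8 and 55.1 CPM after MCAO, a log2 change of -0.53 ± 0.06 (adjusted p = 5.01e-07, edgeR). Nes was the 1 member called lower in endothelial cells, where 22.9% of 12563 genes were called lower, and the other 4 were among the 24.3% called higher. Microglia had 6.30, 8.46 and 7.22 CPM in sham (32, 41 and 43 UMIs) and 27.1, 23.5 and 27.5 CPM after MCAO (243, 195 and 207 UMIs), a log2 change of 1.83 ± 0.14 (adjusted p = 1.24e-10). No MCAO library overlapped a sham library in either class. In endothelial cells the endothelial markers also fell, 7 of 12 being lower and 2 higher, with sums of 28909 to 30160 CPM in sham and 22634 to 23078 CPM after MCAO. Astrocyte markers there were higher in 15 of 15 (327 to 386 and 609 to 712 CPM) and pericyte markers in 8 of 10 (60.7 to 81.6 and 106 to 119 CPM), with none at 0 in any of the 3 lists. Their part in the endothelial changes of Nes, Vim and Synm was not tested.

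Microglial Nes stood above the level of the endothelial markers. In sham it was 8.71% to 11.7% of the endothelial level of the same library, where the median of the 12 endothelial markers was 4.68% to 6.45%, and after MCAO it was 45.8% to 54.0%, where the markers' median was 4.22% to 5.44%. Those markers summed to 1391 to 1703 CPM in sham microglia and 987 to 1235 CPM after MCAO, with none at 0. The smooth muscle and pericyte markers, the other classes rich in Nes, summed to 207 to 316 and 44.3 to 66.0 CPM in sham and 224 to 306 and 98.0 to 111 CPM after MCAO. Without the 1780 sham and 1801 MCAO microglia with UMIs of at least 4 endothelial markers the change was 1.79 ± 0.22 (adjusted p = 1.29e-06, edgeR). By cluster, Nes was at 5.58 to 8.81 CPM in sham cells of cluster 1, 14.5 to 15.4 CPM in MCAO cells of cluster 5 and 29.0 to 35.6 CPM in MCAO cells of cluster 7, and Vim at 37.2 to 44.3, 53.3 to 65.6 and 210 to 238 CPM. Cluster 7 was thus the higher of the MCAO clusters in every library, for both genes. Its leading genes were Mmp12, Lpl and Spp1, and its microglia marker score, 0.425, was below those of cluster 5 (0.725) and cluster 1 (0.998). In the whole class 13 of 14 microglia markers were lower after MCAO and 1 higher (sums of 43945 to 47019 and 22818 to 24325 CPM), and 6 of 10 monocyte-derived markers were higher (405 to 429 and 637 to 772 CPM), with none at 0. Their part in the Nes and Vim results was not tested. Thinned, 0.788% ± 0.174 of sham and 2.76% ± 0.30 of MCAO microglia had a Nes UMI (exact permutation p = 0.1). Microglia held 4.08% ± 0.38 of all Nes UMIs in sham and 22.8% ± 1.6 after MCAO, while the endothelial share went from 83.3% ± 1.7 to 58.8% ± 2.0.

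**Figure D4:**
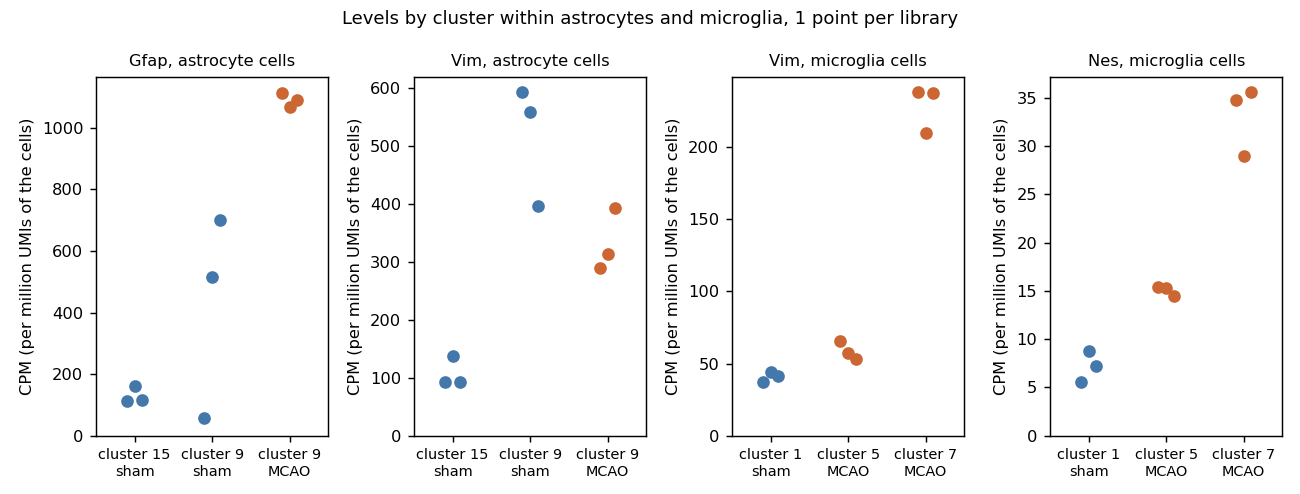
Gfap and Vim in astrocytes and Vim and Nes in microglia by cluster, as CPM of the cells of that cluster; each point is 1 library. In microglia, cluster 7 of the MCAO libraries lies above cluster 5, and in astrocytes the few sham cells of cluster 9 lie above cluster 15 for Vim.

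In astrocytes Nes was scarce, at 3, 10 and 13 UMIs in sham and 15, 24 and 28 UMIs after MCAO, and the levels of 7.96 ± 4.23 and 11.7 ± 4.35 CPM overlapped (log2 change 0.48 ± 0.37, adjusted p = 0.418, edgeR). Pericytes had 63.7 ± 6.19 and 46.8 ± 13.5 CPM (-0.41 ± 0.33, adjusted p = 0.495) and smooth muscle 50.3 ± 4.13 and 47.2 ± 8.36 CPM (-0.11 ± 0.15, adjusted p = 0.695). Ependymal cells, with 5, 9 and 12 Nes UMIs in sham and 1, 5 and 11 after MCAO, had too few counts for a test. The Nes change in endothelial cells differed from that in astrocytes by -1.01 ± 0.33 (adjusted p = 0.032, edgeR), a call lost without MCAO replicate 2 or 3 or sham replicate 1 or 2 (adjusted p of 0.0947 to 0.276) and in cells under 5% mitochondrial UMIs (adjusted p = 0.102). Over all kept cells Nes went from 38.5 ± 1.15 to 29.0 ± 1.36 CPM (-0.41 ± 0.05, adjusted p = 1.41e-05).

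**Figure D5:**
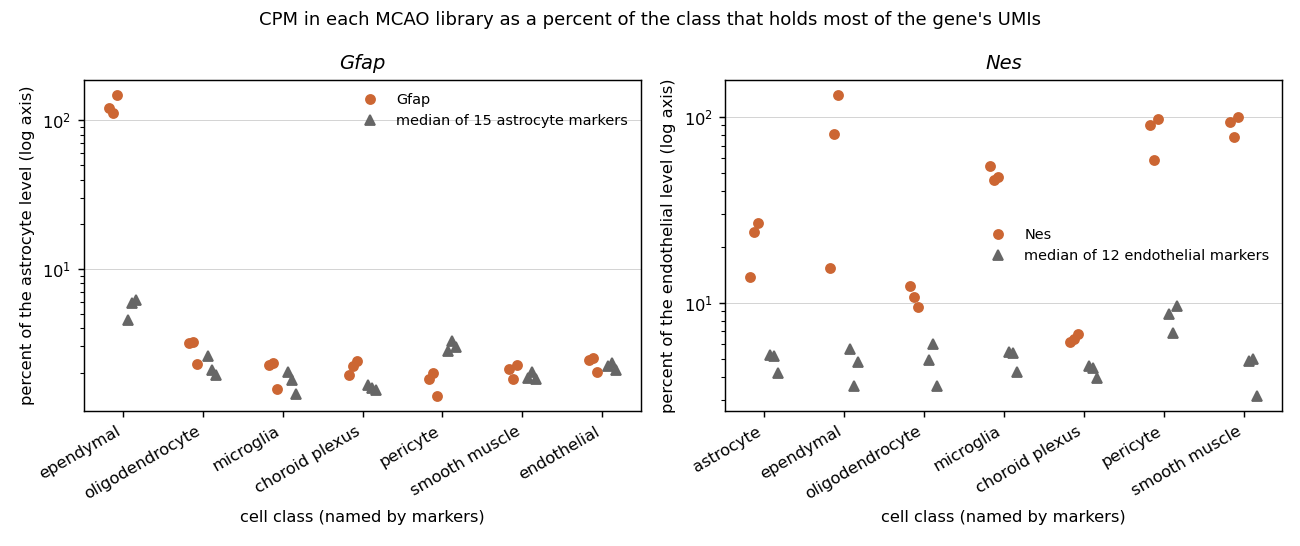
CPM of Gfap (left, as a percent of the astrocyte level) and Nes (right, as a percent of the endothelial level) in the 3 MCAO libraries, circles, beside the median of the same percent over that source's markers, triangles; the axis is logarithmic. Gfap lies near the markers in every class shown but ependymal cells. Nes lies well above them in microglia, pericytes, smooth muscle, ependymal cells and astrocytes, and nearer to them in oligodendrocytes and choroid plexus epithelium.

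Synm was higher in oligodendrocytes and endothelial cells after MCAO. Oligodendrocytes had 30.7, 15 and 19 CPM in sham (26, 13 and 17 UMIs) and 67.8, 61.9 and 63.1 CPM after MCAO (101, 93 and 71 UMIs), a log2 change of 1.58 ± 0.21 (adjusted p = 2.25e-07, edgeR). After MCAO this was 38.0% to 46.5% of the endothelial and 27.3% to 32.0% of the smooth muscle level, while those classes' markers had medians of 3.54% to 5.99% and 0.512% to 0.809% in oligodendrocytes. Endothelial cells had 91.8, 84.0 and 84.9 CPM in sham and 144, 135 and 162 CPM after MCAO (0.76 ± 0.06, adjusted p = 7.82e-08), and neither class had overlapping groups. In smooth muscle, which followed ependymal cells in the mean sham level of Synm, the levels were 217 ± 26.0 and 221 ± 8.30 CPM (0.03 ± 0.09, adjusted p = 0.863, edgeR). The endothelial change exceeded the smooth muscle change by 0.74 ± 0.10 (adjusted p = 7.11e-10, edgeR). This did not hold in cells under 5% mitochondrial UMIs, where smooth muscle Synm was called higher (1.0) and the difference was -0.32 ± 0.21 and not called (adjusted p = 0.597).

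Ependymal cells had the highest mean sham level of Synm, at 292, 223 and 291 CPM, and 181, 182 and 152 CPM after MCAO. Their sham range overlapped that of smooth muscle (197 to 246 CPM). The groups did not overlap, but the counts were small (26, 19 and 41 against 19, 18 and 18 UMIs) and the log2 change of -0.67 ± 0.25 was not called (adjusted p = 0.115, edgeR). With doublets kept it was called lower (-0.93, adjusted p = 6.94e-03). In the ependymal class Gfap and Vim were thus called higher and Synm was not. Astrocyte Synm, at 10.7 ± 1.12 and 14.4 ± 1.40 CPM from 9 to 34 UMIs per library, was not called (0.43 ± 0.28, adjusted p = 0.33), and was called higher at both other clustering resolutions and without astrocytes that had ependymal markers (0.89 to 1.11, adjusted p of 0.0138 to 0.0446). In the sham cells of cluster 9 Synm was at 45.7 to 69.8 CPM, and in those of cluster 15 at 3.58 to 9.31 CPM. Pericyte Synm, at 3 to 12 UMIs per library, was not tested within the class. Over all kept cells Synm went from 55.1 ± 2.97 to 69.8 ± 2.20 CPM (0.34 ± 0.05, adjusted p = 2.81e-05, edgeR).

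Des was found mostly in mural cells and was not called in them. Smooth muscle had 752, 720.02 and 684 CPM in sham and 706, 708 and 774 CPM after MCAO, overlapping groups with a log2 change of 0.02 ± 0.06 (adjusted p = 0.861, edgeR). Pericytes had 224, 232 and 103 CPM in sham (26, 32 and 20 UMIs) and 225, 200.5 and 243 CPM after MCAO (0.34 ± 0.21, adjusted p = 0.344). Sham replicate 3 was the low one, and without it the other 5 libraries lay between 200.5 and 243 CPM. Smooth muscle cells held 85.6% ± 1.0 of all Des UMIs in sham and 76.0% ± 1.3 after MCAO, and pericytes 2.48% ± 0.68 and 7.63% ± 1.09, while pericytes went from 0.788% ± 0.112 to 2.25% ± 0.09 of the kept cells. Endothelial Des (6.10 ± 1.25 and 8.17 ± 0.75 CPM) passed the test (0.43 ± 0.16, adjusted p = 0.0337, edgeR) at 0.959% to 1.23% of the smooth muscle level, beside 0.706% to 1.03% for the 11 smooth muscle markers. That call was lost with DESeq2 (adjusted p = 0.119), in thinned cells (0.133), with the 5% mitochondrial limit (0.0555), with total count scaling (0.0519) and without sham replicate 1 or 3 or MCAO replicate 1 or 2 (0.0837 to 0.139). Its change differed from that of smooth muscle Des by 0.43 ± 0.14 (adjusted p = 0.0296), a call lost without any of the same 4 libraries and with the 5% limit (0.15, adjusted p = 0.847). Over all kept cells Des was at 43.3 ± 1.32 and 44.2 ± 2.03 CPM and was not called (adjusted p = 0.619, edgeR).

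Over the 13 classes and 5 genes, 41 of 65 pairs had counts and cells enough to be tested. Gfap was called higher in 9 of 9 tested classes, and its MCAO level was near background in all but astrocytes and ependymal cells. Vim was called higher in 8 and lower in 1 of 12, and Nes higher in 1 and lower in 1 of 5. Synm was called higher in 3 of 9 and Des in 2 of 6. The genes most like each member across the 24 class and group means, by Pearson's r of log2(CPM + 1), differed for each member. For Gfap they were Aqp4 (0.90), Gpr37l1 (0.90) and Ptprz1 (0.88). For Vim they were Plec (0.93), which encodes plectin, a linker of intermediate filaments, 4930523C07Rik (0.83) and Ahnak (0.82). Nes was closest to Tm4sf1 (0.91), Hspb1 (0.88) and Afap1l2 (0.87), Synm to 2900026A02Rik (0.87), Ppp1cb (0.85) and Map1b (0.85), and Des to Myl9 (0.98), Aspn (0.98) and Mylk (0.97). The points share libraries and classes, so these values describe and test nothing. Among the members, r was highest between Nes and Synm (0.69) and lowest between Gfap and Des (-0.09).

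The genes around the members in the filament pathway changed in part, and their counts in astrocytes stand beside 10.6% of all tested genes called higher and 8.29% lower. In astrocytes the 3 small heat shock chaperones that bind filament proteins were all higher: Hspb1 rose from 127 ± 30.6 to 288 ± 39.5 CPM (log2 change 1.18 ± 0.15, adjusted p = 3.63e-04, edgeR), Cryab from 169 ± 6.8 to 324 ± 81.1 CPM and Hspb8 from 39.3 ± 1.6 to 55.0 ± 10.9 CPM. Their median log2 change was 0.93, beside -0.01 over all genes tested in astrocytes. Of 6 tested linkers and anchors 2 were higher and 3 lower (median -0.05); Dmd, which encodes dystrophin, fell from 119 ± 20.1 to 74.9 ± 9.2 CPM, and Dtna and Macf1 were also lower, while Flna was higher. Of 9 tested enzymes that modify or cut filaments 1 was lower and none higher (median 0.15). Of 13 other intermediate filament genes 2 could be tested (median 0.31), and Lmna, a nuclear lamin, rose from 29.3 ± 1.9 to 50.2 ± 3.6 CPM.

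Among genes known to act on Gfap transcription, Osmr, a receptor subunit for oncostatin M, was higher in astrocytes, from 7.38 ± 3.0 to 66.8 ± 12 CPM (log2 change 3.12 ± 0.24, adjusted p = 2.53e-12, edgeR). It was the 1 of 10 receptors called (median 0.12), a share near the 10.6% of all genes called higher in astrocytes. Stat3, the transcription factor downstream of that receptor, rose from 52.1 ± 3.2 to 131 ± 24.4 CPM (1.34 ± 0.14, adjusted p = 2.98e-09). Of 12 tested transcription factors 3 were higher, Stat3, Jun and Fos, and 1 lower, Mef2c, with a median of -0.05. Of 17 tested genes known from reactive astrocytes 11 were higher and none lower, with a median of 2.65. Serpina3n, a secreted protease inhibitor, rose from 6.48 ± 2.7 to 180 ± 37.5 CPM and Lcn2, an iron-binding lipocalin, from 11.3 ± 3.1 to 146 ± 34.1 CPM. Ptx3 and Cd14 were the other genes with the largest changes. Lcn2 was also among the leading genes of endothelial cluster 4, and Cd14 among those of microglia cluster 7. In astrocytes monocyte-derived markers summed to 172 to 216 CPM in sham and 301 to 452 CPM after MCAO. Neutrophil markers there summed to 265 to 376 CPM in sham and 238 to 1436 CPM after MCAO. The part of RNA from other classes in these calls was not tested.

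The same lists were counted in the mural classes. In pericytes, where 8.17% of all tested genes were higher and 6.36% lower, Stat3 rose from 79.8 ± 20.7 to 180 ± 7.4 CPM (1.16 ± 0.23, adjusted p = 2.4e-04, edgeR) and Osmr from 28.8 ± 17.6 to 108 ± 10.2 CPM. Counts there were 2 higher and 5 not called of 7 transcription factors (median 0.17), 1 higher of 7 receptors (median -0.17), 1 lower of 4 linkers, Dmd (median -0.39), none of 6 enzymes (median -0.50), 1 lower of 2 chaperones, Cryab (median -0.28), and 4 higher and 2 lower of 9 reactive astrocyte genes (median 0.89), beside -0.01 over all genes tested. A count of 1 gene in lists of this size is near the share over all genes. Cd14 went from 7.59 ± 7.8 to 186 ± 15.1 CPM, and Tnc, which encodes the matrix protein tenascin C, had no UMI in sham pericytes and 105 ± 16.2 CPM after MCAO. Cd14 was also among the leading genes of microglia cluster 7, and its MCAO means were 144 CPM in astrocytes and 116 CPM in smooth muscle. The part of free RNA in its pericyte level was not tested. In smooth muscle, where 10.8% of all tested genes were higher and 9.31% lower, 3 of 6 linkers were lower and none higher (median -0.36): Dst fell from 223 ± 20.8 to 124 ± 7.9 CPM, Flna, an actin crosslinker that also binds vimentin, from 1034 ± 24.9 to 662 ± 7.9 CPM and Dmd from 158 ± 3.7 to 113 ± 5.3 CPM. Transcription factors there split, with 4 higher, among them Stat3 and Fos, and 3 lower, among them Mef2c and Srf, of 11 tested (median 0.43), and 3 receptors were higher and 1 lower of 8 (median 0.04), Osmr rising from 25.5 ± 3.1 to 69.7 ± 8.8 CPM. Of 12 reactive astrocyte genes 11 were higher (median 1.73), beside -0.01 over all genes tested. The astrocyte markers in smooth muscle summed to 846 to 920 CPM in sham and 997 to 1043 CPM after MCAO, with none at 0. Of 13 tested astrocyte markers 9 were higher there and 1 lower (median 1.09). The median of the 15 markers was 0.776% to 0.874% of the astrocyte level in sham and 1.82% to 2.02% after MCAO. The part of these markers in the reactive gene calls was not tested. Of 6 enzymes 1 was lower (median -0.07), of 3 chaperones 1 was lower, Cryab (median 0.10), and none of 3 other intermediate filament genes was called (median 0.05).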

How the data were processed

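For each of the 3 sham and 3 MCAO libraries, the deposited files hold unnormalized UMI counts of every gene in every barcode. The authors made these counts with Cell Ranger and STAR on mm10, per the submitters' processing notes; the sources used here give no version, annotation or cell-calling setting, and the barcodes already stood restricted to called cells. The 5 genes and all gene lists were chosen with earlier results of these data known. Samples were grouped by their titles.

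Barcodes with under 300 genes (15), over 10% mitochondrial UMIs (1298) or the highest doublet scores of Scrublet (4662, at 0.8% per 1000 barcodes of a library) were left out. The rest were clustered in scanpy 1.11.5 (2000 variable genes without the 5 members, 30 principal components, 20 neighbours, Leiden resolution 1.0) into clusters that were named by markers; 2 of the naming rules were set after the clusters were seen, and clusters 19, 23 and 26 stayed unnamed. Each class needed 20 cells in every library. UMIs were summed per class and library and tested with edgeR 4.0.16 (filterByExpr, TMM, quasi-likelihood test, Benjamini-Hochberg, 0.05), as was the difference of the change between 2 classes. The test was first checked on simulated data. Shares of cells used 1000 UMIs per cell and an exact permutation test. Alternatives were other filters, scalings, resolutions and tests, DESeq2 1.42.0, a replicate block and leaving out each library; leaving out cells with markers of a second class, and the 5% mitochondrial limit for differences between classes, were added after seeing the data. Same-numbered libraries did not deviate together (r of -0.11 to 0.03), so numbers were not taken as pairs. Named genes were the members, up to 4 called genes per list in astrocytes, pericytes and smooth muscle with a mean of at least 20 CPM, largest change first, and the 3 genes most like each member among those of at least 50 CPM in their highest class. Counting with 3′ reads makes a UMI independent of gene length but not of capture, and counts of 3 libraries a group limit precision.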

Additional observations from a re-analysis of the deposited data

Results flagged for a closer look

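In 8 tests, each of 1 gene in 1 pair of classes, the change after MCAO differed between the classes by a test of the difference itself (edgeR, class by group with the library as a term, adjusted over all genes tested), which is why they stand here. For Vim the change was smaller in pericytes than in astrocytes (-0.63 on the log2 scale), in smooth muscle than in astrocytes (-1.69) and in endothelial cells than in astrocytes (-0.93). The Vim change in smooth muscle was also below that in pericytes (-1.08), and the endothelial change was above that in smooth muscle (0.79). For Nes the endothelial change was below the astrocyte change (-1.01). For Synm the endothelial change was above the smooth muscle change (0.74), which turned to -0.32 and was not called in cells under 5% mitochondrial UMIs. For Des the difference was 0.43, with endothelial Des at a level near that of the smooth muscle markers in those cells. Of these, Vim between pericytes and astrocytes and between endothelial cells and astrocytes, Nes and Des each lost the call when at least 1 library was left out, and Nes and Des also lost it in cells under 5% mitochondrial UMIs.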

How the results depend on the processing

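Of 624 alternative values for the change of a member in a class, 601 kept their direction and their side of the threshold, 18 lost the call and 5 gained it. None turned direction with a call on either side. Of 239 alternatives for the difference between classes, 223 kept both, 15 lost the call and 1 reversed: for Synm, endothelial minus smooth muscle went from 0.74 to -0.32 (adjusted p = 0.597, edgeR) at the 5% mitochondrial limit, and the cause was not tested. That limit was added for these differences after seeing the data. Vim in astrocytes lost its call without sham replicate 1 and with the replicate block (1.33, adjusted p = 0.0666, edgeR); without 1 library its change ranged from 1.16 to 1.54. The replicate block changed no other call of a member. The 9 same-numbered correlations were all at or under 0.1, so the numbers were not read as pairs. Vim in pericytes was not called in cells thinned to 1000 UMIs (0.60), nor Vim in smooth muscle with a mitochondrial limit of 5% (-0.11); both alternatives hold fewer UMIs or cells, and the cause was not tested. Without 1 library the difference in the Vim change ranged from -1.12 to -0.79 between endothelial cells and astrocytes and from -0.80 to -0.47 between pericytes and astrocytes. The difference in the share of astrocytes with Gfap moved from 30.5 percentage points to 33.3 at 1500 UMIs and 40.0 with all UMIs, and that with Vim from 11.4 to 17.5 with all UMIs. Genes called in all numbered 1850 in astrocytes (620 to 2336 over the alternatives), 161 in ependymal cells (32 to 474), 752 in pericytes (204 to 942) and 1808 in smooth muscle (632 to 1932). At resolution 0.6 pericytes and smooth muscle merged and gave no value, and ependymal cells were too few for 2 alternatives (the mitochondrial limit of 5% and leaving out cells with astrocyte markers). Depth limits ependymal cells (27 to 46 a library), Nes and Synm in astrocytes (3 to 34 UMIs a library), and Synm (3 to 12 UMIs) and Gfap (0 to 12 UMIs) in pericytes. Pericyte Synm and Gfap were not tested within the class. The differences of their change from that of other classes were tested and not called.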
